A study of Mus musculus with 4 samples.

Results

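The genes described here encode the fetal RNA-binding protein LIN28B, the IGF2BP mRNA-binding proteins and the HMGA chromatin proteins. They were taken as every probe set annotated to exactly 1 gene symbol among Lin28b, Igf2bp1, Igf2bp2, Igf2bp3, Hmga1 and Hmga2, and each probe set was kept apart. The rule found 5 probe sets of 35556, which stood for 4 of the 6 genes, among 19938 genes with a probe set of their own: 1 probe set each for Lin28b, Igf2bp3 and Hmga2, and 2 for Igf2bp1. Igf2bp2 and Hmga1 had no probe set with their symbol, alone or among several, and were not analysed here.

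Lysates of early erythroid progenitors, taken from C57BL/6 mouse fetal liver at E14.5, were immunoprecipitated and the RNA in the precipitate was hybridised. On 2 arrays (RBP) the antibody was directed at an RNA-binding protein, and on 2 arrays (IgG) rabbit IgG served as control for cells of the same kind. Before lysis the cells had been depleted of those positive for lineage antigens, CD34, CD41, CD16/32 or Sca-1, and then sorted as c-Kit positive with the lowest CD71. The protein is not named in the labels. Knowledge of the published study points to ZFP36L2, a zinc finger protein that binds AU-rich elements of mRNAs, and the antibody's identity could not be checked here.

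LIN28B is known for blocking the maturation of let-7 microRNAs, which mature late in development and repress growth-promoting mRNAs. The mRNAs of Lin28b, the Igf2bp genes and Hmga2 are themselves textbook targets of let-7, and the proteins are abundant in embryonic tissues and scarce in most adult ones. In blood formation LIN28B, IGF2BP proteins and HMGA2 are known as parts of the fetal programme of stem and progenitor cells. IGF2BP proteins bind and stabilise mRNAs, and HMGA proteins bind AT-rich DNA through short AT-hook motifs.

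The family that joins these genes is recognised by its seed, bases 2 to 8 of the mature microRNA, which pairs with target mRNAs. The mature 5p sequences of the 4 let-7 genes with the highest mean level among single-symbol let-7 probe sets are shown because each carries the same seed, in capitals, 5′ to 3′, from RefSeq on GRCm38.p6:
let-7e: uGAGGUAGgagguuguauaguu
let-7g: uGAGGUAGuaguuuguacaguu
let-7i: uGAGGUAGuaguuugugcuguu
let-7d: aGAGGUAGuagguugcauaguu
Let-7e lies at chr17:17830366-17830387 on the plus strand and let-7g at chr9:106178846-106178867 on the plus strand. Of 12 let-7 family genes on the array, 11 had a 5p sequence in the RefSeq table, and all 11 held the seed GAGGUAG. LIN28 proteins are known to bind GGAG in the loop of the let-7 precursor. The stretch between the arms of the hairpins is shown for a gene with that motif and a gene without it, with GGAG in capitals:
let-7g loop: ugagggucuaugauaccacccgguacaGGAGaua
let-7b loop: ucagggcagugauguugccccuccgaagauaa
On the RNA strand, 8 of 11 let-7 family hairpins held GGAG between the arms, against 52 of 644 mouse hairpins with both arms annotated (8.07%). A match is a description of letters and not of binding.

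Each array gave a log2 level per probe set. Array medians were 5.57 and 5.62 for RBP and 5.85 and 5.93 for IgG, and interquartile ranges were 3.73 and 3.61 for RBP and 2.91 and 2.87 for IgG. Over all probe sets the 2 RBP arrays differed with an SD of 0.326 and the 2 IgG arrays with an SD of 0.622. A mean level of 5.35, the 95th percentile of 1261 chemosensory receptor probe sets, was taken as the background level. The labels do not tell whether the replicates were independent preparations of cells, so p-values reflect only how far these arrays differ, a spread that may be technical. In these bulk preparations the number of cells, the RNA per cell and the efficiency of the pull-down cannot be told apart. All 10 early erythroid markers measured, among them Kit, Gata1 and Epor, were above the background level. The same held for 9 of 13 hepatocyte and hepatoblast, 8 of 10 endothelial and stromal and 4 of 4 lymphoid markers. It also held for 3 of 5 megakaryocyte, 5 of 9 granulocyte and mast cell and 5 of 11 macrophage markers. By mean level the granulocyte marker Mpo lay above Gata1 (9.86) and Epor (9.82) and below Kit (11.41). A level above background therefore does not single out erythroid cells, and the purity of the preparations was not tested. Hepatoblasts are also known to express several of these fetal genes. Of 13 hepatocyte and hepatoblast markers, 0 passed the test (limma; 2 were lower and 0 higher at an unadjusted p under 0.05), and Afp, Ttr, Apob and Ahsg were at or below the background level. The summed linear signal of that list was 1130 to 1456 on the RBP arrays and 1239 to 1419 on the IgG arrays.

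Setting RBP against IgG arrays addresses whether the mRNAs of these genes came down with the RBP antibody more than with IgG. Igf2bp1 was higher on the RBP arrays by both of its probe sets, at 3.23-fold and 2.02-fold. Igf2bp3 and Lin28b lay just outside the threshold at 1.60-fold and 1.53-fold in the fit over all probe sets. Hmga2 gave the opposite sign, with IgG levels 1.71-fold those of the RBP arrays, and did not pass. By limma, with Benjamini-Hochberg adjustment over 35556 probe sets, 2 of 5 member probe sets were higher, 0 were lower and 3 did not pass, whereas at an unadjusted p under 0.05 the counts were 4 higher and 1 lower. At that unadjusted threshold 7154 of all 35556 probe sets were higher and 6453 lower. For the 21789 with 1 gene symbol, 5893 were higher and 2458 lower. After adjustment, 4122 (11.6%) of all probe sets were higher and 1997 (5.62%) were lower. In the same fit, 3470 (15.9%) of those with 1 gene symbol were higher and 470 (2.16%) lower. The fit included 12146 probe sets with no gene symbol, and what they measure was not checked. Of genes above the background level, where all 5 member probe sets lay, 24.3% were higher and 2.43% lower. Calls over all probe sets were higher in 67.4%. That share was 51.6% with quantile normalization, 87.8% after centring on the chemosensory probe sets and 27.9% with the level trend removed.

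**Figure D1:**
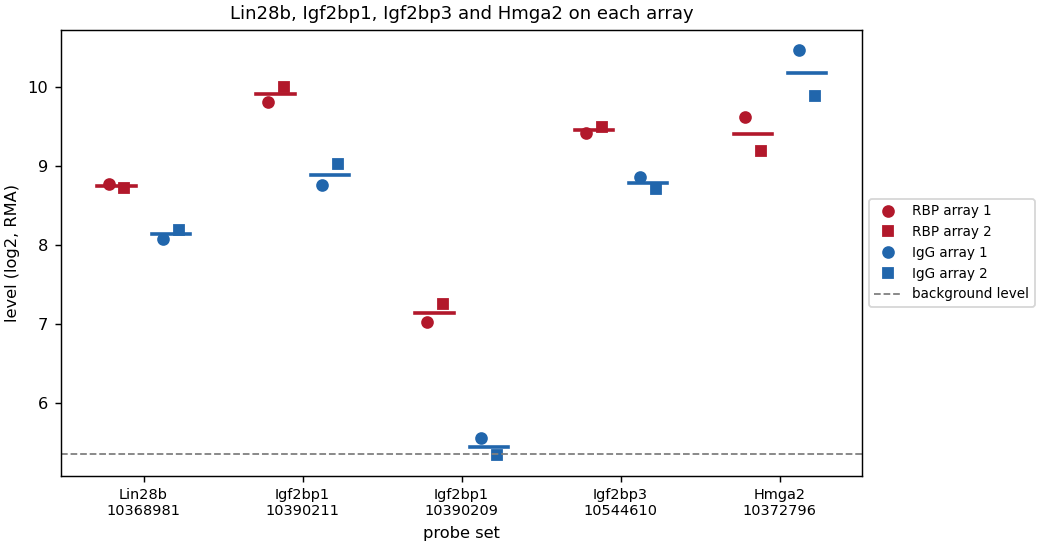
Log2 level of the 5 probe sets on each array, with 2 RBP arrays (red) left of 2 IgG arrays (blue), bars at the group means and a dashed line at the background level of 5.35. Both RBP arrays lie above both IgG arrays for Lin28b, Igf2bp1 and Igf2bp3, and below them for Hmga2. Over all probe sets they lie above for 28.3% and below for 43.8%.

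Lin28b, by probe set 10368981, had levels of 8.77 and 8.73 on the RBP arrays, against 8.08 and 8.19 on the IgG arrays. Both RBP arrays were above both IgG arrays, and the groups did not overlap. The same held for 28.3% of all probe sets and for 8104 of the 21789 with 1 gene symbol. The difference was 0.61 ± 0.15 on the log2 scale (SE, n = 2 each; 95% interval 0.22 to 1.01), with an adjusted p of 0.0581 in limma over all probe sets. The variance estimate and the adjustment depended on which probe sets were tested. Over the 21789 probe sets with 1 gene symbol the same difference had an adjusted p of 0.0280 in limma, and it passed. The sign of the Lin28b difference turned when the trend of the difference on level was removed (-0.11; limma, adjusted p = 0.686), and the difference was 0.08 with quantile normalization (adjusted p = 0.767). It was 0.93 after centring on the chemosensory probe sets (adjusted p = 0.0231).

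Among the IGF2BP genes, Igf2bp1 encodes the zipcode-binding protein, first known for carrying beta-actin mRNA in the cell. Its brighter probe set, 10390211, had 9.81 and 9.99 on the RBP arrays, against 8.75 and 9.02 on the IgG arrays. The RBP arrays were again both above the IgG arrays, with a gap wider than the spread within either group. The difference was 1.02 ± 0.18 (SE, n = 2 each; 95% interval 0.54 to 1.50; limma, adjusted p = 0.0344). The second probe set, 10390209, had 7.03 and 7.25 on the RBP arrays, against 5.55 and 5.34 on the IgG arrays. Its IgG levels stood at the background level, so the size of its difference is uncertain, while both RBP values were clear of it. That difference was 1.69 ± 0.18 (95% interval 1.22 to 2.17; limma, adjusted p = 0.0259). The intervals of the probe sets overlapped, and the difference between them was not tested.

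Igf2bp3 encodes the third paralog, known as an oncofetal protein that is largely silent in adult tissue. Probe set 10544610 had 9.42 and 9.49 on the RBP arrays, against 8.85 and 8.70 on the IgG arrays. As for Lin28b, the groups were apart and the arrays within each group were close. The difference was 0.68 ± 0.15 (SE, n = 2 each; 95% interval 0.27 to 1.09; limma, adjusted p = 0.0518). Over the probe sets with 1 gene symbol the adjusted p was 0.0230 in limma, and it passed. It was 0.00 with the level trend removed (adjusted p = 0.994), 0.15 with quantile normalization (adjusted p = 0.584) and 0.99 after centring on the chemosensory probe sets (adjusted p = 0.0181).

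Hmga2 encodes an AT-hook protein of open chromatin that supports self-renewal of fetal stem cells. Probe set 10372796 had 9.61 and 9.18 on the RBP arrays, against 10.46 and 9.89 on the IgG arrays. Both RBP arrays were below both IgG arrays, but the arrays within each group differed more than for any other member probe set, with an SD of 0.30 for RBP and 0.40 for IgG. The difference was -0.78 ± 0.28 (SE, n = 2 each; 95% interval -1.52 to -0.03; limma, unadjusted p = 0.0450, adjusted p = 0.122). Both RBP arrays lay below both IgG arrays for 43.8% of all probe sets, and above them for 28.3%. Among the 21789 probe sets with 1 gene symbol, they lay below for 7937 (36.4%) and above for 8104. The Hmga2 difference kept its sign in all 14 alternative settings, from -1.31 with the level trend removed (adjusted p = 0.0685) to -0.46 after centring on the chemosensory probe sets (adjusted p = 0.294). It was -0.49 without IgG array 1, -1.06 without IgG array 2, -0.99 without RBP array 1 and -0.56 without RBP array 2.

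The differences were read against the level of each probe set, since the difference followed a trend on level. The loess trend of the difference on level stood at 0.72 for the level of Lin28b, 0.67 for Igf2bp3, and 0.62 and 0.09 for the brighter and dimmer probe sets of Igf2bp1. Lin28b and Igf2bp3 therefore lay on the trend. The dimmer probe set of Igf2bp1 lay far above it and passed with the trend removed (1.60; limma, adjusted p = 0.0340), and the brighter did not (0.39; adjusted p = 0.243). The brighter one also lost its call with quantile normalization (0.53; limma, adjusted p = 0.154), where the dimmer one passed (1.78; adjusted p = 0.0433). At the level of Hmga2 the trend was 0.54, so this gene lay further below the trend than below 0.

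**Figure D2:**
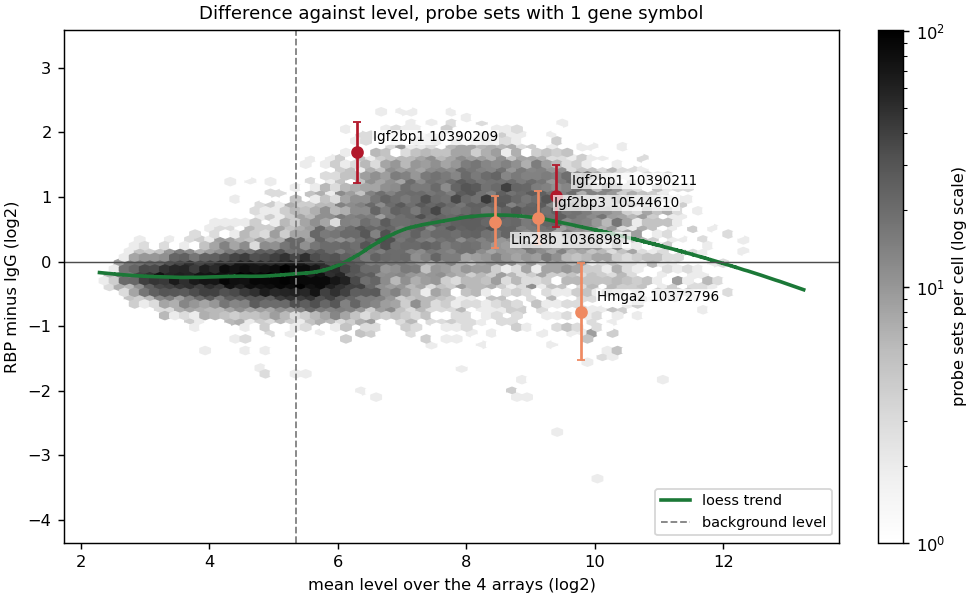
RBP minus IgG difference (log2) against mean level over the 4 arrays for probe sets with 1 gene symbol, shaded by number on a log scale, with the loess trend (green), the background level (dashed) and the 5 member probe sets with 95% intervals (dark red, adjusted p under 0.05; orange, not passed). Lin28b and Igf2bp3 sit on the trend, the dimmer Igf2bp1 probe set above it and Hmga2 below it.

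No member passed without RBP array 1 or without RBP array 2, and in those fits 0 of 35556 probe sets did (limma). The variance then came from the IgG arrays alone. The sizes of the member differences stayed positive for the IGF2BP genes and Lin28b: 0.59 and 0.63 for Lin28b, 0.71 and 0.64 for Igf2bp3, 1.80 and 1.58 for the dimmer Igf2bp1 probe set, and 1.11 and 0.93 for the brighter, without RBP array 1 and without RBP array 2 in turn. With 2 arrays a group, the smallest two-sided p of an exact permutation test is 0.333, so the member calls depend on limma's variance moderation. Without it 1 probe set of the whole table was called, and it was no member.

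**Figure D3:**
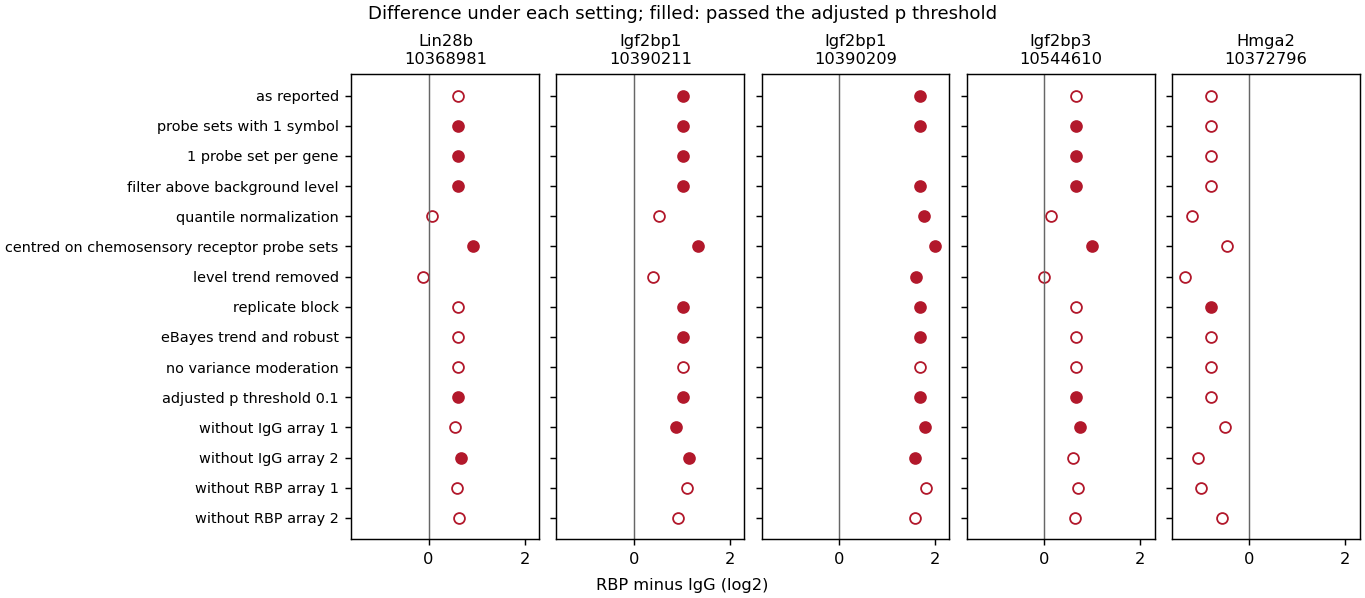
RBP minus IgG difference (log2) of the 5 member probe sets as reported and in each alternative setting, with filled points where the adjusted p threshold was passed. The dimmer Igf2bp1 probe set stays between 1.58 and 2.01, Hmga2 stays negative, and Lin28b and Igf2bp3 reach about 0 with the level trend removed.

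Genes whose 4 values followed those of a member most closely were taken from 12107 genes above the background level, by the root mean square distance between values centred on each probe set's own mean. With 4 arrays in 2 groups, this likeness mostly restates the size of the difference. The nearest to Lin28b were Gpr137 (distance 0.0072), Pcbp1, a poly(C)-binding protein (0.0089), and Slc38a2, an amino acid transporter (0.010). Igf2bp1 was followed by Fbxw7, the substrate receptor of an SCF ubiquitin ligase (0.015), Stx12, an endosomal syntaxin (0.018), and Wdr48, a cofactor of deubiquitinating enzymes (0.019). Igf2bp3 was followed by Sdhd, a membrane subunit of succinate dehydrogenase (0.0047), Dhodh of pyrimidine synthesis (0.0099) and the pseudouridine synthase Trub1 (0.017). The nearest to Hmga2 were further off: Ap3s1 of the AP-3 adaptor complex (0.045), Sdhc of succinate dehydrogenase (0.045) and the mitochondrial carrier Slc25a30 (0.046). Their differences ran from -0.86 for Slc25a30 to -0.72 for Ap3s1, and none of these 3 passed in limma (adjusted p from 0.0960 to 0.145).

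The mRNAs of let-7 processing factors, with those of the Argonaute proteins and their partners in silencing, formed the list with the highest median. Of 21 genes measured, all above the background level on average, 11 were higher, 0 were lower and 10 did not pass (limma; also 0 lower at an unadjusted p under 0.05). Ago2 did not pass by its brightest probe set (limma, adjusted p = 0.102), but its other probe set did (0.98 ± 0.21; adjusted p = 0.0461). The other probe sets of Ddx5 and Tarbp2 did not pass. The list's median difference was 1.0, against 0.40 over all genes above the background level, of which 24.3% were higher and 2.43% lower. Dicer1, which cuts precursors to mature microRNAs, had 10.90 and 11.01 on the RBP arrays, against 9.45 and 9.32 on the IgG arrays, and differed by 1.57 ± 0.15 (SE; by limma, adjusted p = 0.0259). The groups were far apart for Dicer1, with little spread in either. The Argonaute gene Ago4 differed by 1.44 ± 0.22, with IgG levels below the background level, Ago1 by 1.37 ± 0.17, and Tnrc6c, an Argonaute partner in silencing, by 1.39 ± 0.19. Of the list, 2 genes, Dicer1 and Ago4, passed with quantile normalization and with the level trend removed.

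Genes known to act with LIN28 proteins were in the same list. The uridylyl transferases Tut4 and Tut7, which LIN28 proteins recruit to let-7 precursors, were named after their values were seen. Both were higher on the RBP arrays, Tut4 by 1.02 ± 0.15 (SE; limma, adjusted p = 0.0276) and Tut7 by 1.23 ± 0.21 (adjusted p = 0.0333). Dis3l2, the exonuclease that degrades let-7 precursors tailed after LIN28 binding, had 8.85 and 8.77 on the RBP arrays, against 7.95 and 8.30 on the IgG arrays. The groups did not overlap. The difference was 0.68 ± 0.19 (SE; limma, adjusted p = 0.0729), it passed over the probe sets with 1 gene symbol (adjusted p = 0.0355), and its sign turned with the level trend removed (-0.04). Lin28a, the paralog typical of pluripotent cells, had 6.73 and 6.01 on the RBP arrays, against 6.51 and 6.09 on the IgG arrays, and the groups overlapped. Its difference was 0.08 ± 0.32 (SE; 95% interval -0.77 to 0.93; limma, adjusted p = 0.872), and its sign turned with the level trend removed, without IgG array 2 and without RBP array 1.

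The let-7 genes themselves had low levels. Of 10 let-7 family probe sets with 1 symbol, 3 were above the background level, 2 were lower on the RBP arrays, 0 were higher and 8 did not pass (limma; 4 lower and 0 higher at an unadjusted p under 0.05). Both RBP arrays lay below both IgG arrays for 8 of the 10. The same held for 73.9% of 299 microRNA probe sets, of which 36 were called lower, and for 36.4% of all probe sets with 1 gene symbol. Mirlet7e had 5.76 and 5.99 on the RBP arrays, against 7.06 and 6.76 on the IgG arrays, and differed by -1.04 ± 0.19 (SE; by limma, adjusted p = 0.0366). Mirlet7g had 4.31 and 4.33 on the RBP arrays, against 5.44 and 5.16 on the IgG arrays, and was called lower (limma, adjusted p = 0.0341). Its group means of 4.32 for RBP and 5.30 for IgG were both below the background level, so no size is given for it. Both calls were lost with quantile normalization (adjusted p = 0.0776 for Mirlet7e and 0.133 for Mirlet7g). Mirlet7e also lost its call after centring on the chemosensory probe sets (adjusted p = 0.0541), and Mirlet7g with the level trend removed (adjusted p = 0.0758). The probe sets match microRNA gene records and were not shown to read the mature form. Mirlet7b and Mirlet7c-2 share their probe sets with the long noncoding RNA Lncppara and are uncertain.

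**Figure D4:**
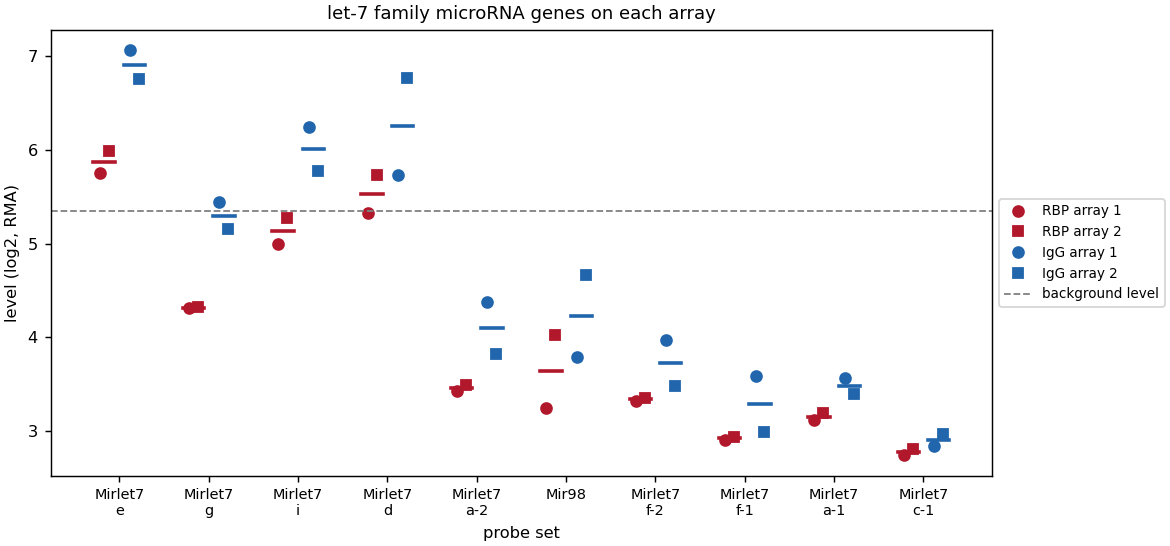
Log2 level of the 10 let-7 family probe sets with 1 symbol on each array, with 2 RBP arrays (red) left of 2 IgG arrays (blue), bars at the group means and a dashed line at the background level. Both RBP arrays lie below both IgG arrays for 8 of 10, and most probe sets lie below the background level.

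Textbook let-7 target mRNAs outside the member genes had a share of higher calls near that of genes above the background level. Of 25 measured, 7 were higher (28%, against 24.3%), 0 were lower and 18 did not pass (limma; also 0 lower at an unadjusted p under 0.05), with a median of 0.69. Tgfbr1, a TGF-beta receptor, differed by 1.43 ± 0.26 (SE; limma, adjusted p = 0.0363). Irs2, an adaptor of insulin and IGF receptors, differed by 1.24 ± 0.17, the heme-responsive repressor Bach1 by 1.21 ± 0.19, and Hic2, a repressor of the fetal globin switch factor BCL11A, by 0.98 ± 0.17. Arid3a, which LIN28B is known to raise in fetal lymphoid progenitors, had 9.72 and 9.27 on the RBP arrays, against 8.66 and 8.67 on the IgG arrays. The value of 0.83 ± 0.21 missed the threshold (limma, adjusted p = 0.0626), and Arid3a passed over the probe sets with 1 gene symbol (adjusted p = 0.0271). With quantile normalization or the level trend removed, 0 genes of this list were higher.

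Around the IGF2BP proteins, the IGF axis and its imprinted growth genes had a median of -0.13. Of 12 measured, 2 were higher (16.7%, against 24.3% of genes above the background level), 0 were lower and 10 did not pass (limma; 1 lower at an unadjusted p under 0.05). Igf2r, the receptor that clears IGF2, had 9.85 and 9.65 on the RBP arrays, against 7.55 and 7.62 on the IgG arrays, and differed by 2.16 ± 0.16 (SE; by limma, adjusted p = 0.0259). It stayed called with quantile normalization (1.71) and with the level trend removed (1.45). The imprinted zinc finger gene Peg3 differed by 1.41 ± 0.16 and lost its call with the level trend removed (adjusted p = 0.0542). Igf2, the growth factor whose mRNA gave the IGF2BP family its name, had 6.07 and 5.45 on the RBP arrays, against 7.35 and 6.04 on the IgG arrays. Its groups overlapped, and the difference of -0.94 ± 0.51 did not pass (limma, adjusted p = 0.240). Without IgG array 2, the array that overlapped the RBP values, it was -1.59 (adjusted p = 0.0439), but the spread then came from the RBP arrays alone and left out the gap between the IgG arrays.

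The m6A machinery and known IGF2BP partners showed 3 of 16 genes higher (18.8%, against 24.3% of genes above the background level), 0 lower and 13 not passed (limma; also 0 lower at an unadjusted p under 0.05), with a median of 0.62. They were the m6A-binding helicase Ythdc2 (1.81 ± 0.22; limma, adjusted p = 0.0259), Syncrip, a partner of IGF2BP1 on stabilised mRNAs (1.06 ± 0.15), and the m6A demethylase Alkbh5 (0.93 ± 0.15). With quantile normalization or the level trend removed, 0 of these genes were higher.

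The other high-mobility-group genes were mixed. Of 11 measured, 2 were higher (18.2%, against 24.3% of genes above the background level), 1 was lower (9.09%, against 2.43%) and 8 did not pass, with a median of 0.11. Hmgb1, an abundant HMG-box chromatin protein, had 8.13 and 8.63 on the RBP arrays, against 9.95 and 9.57 on the IgG arrays, and differed by -1.37 ± 0.26 (SE; by limma, adjusted p = 0.0374). The call did not hold when IgG array 1 was left out (-1.18; adjusted p = 0.0510). Hmgb1 has near-identical pseudogene copies, so its value is uncertain. The HMG-box genes Hmgxb4 (1.44 ± 0.18) and Hmgxb3 (1.34 ± 0.15) were higher, calls lost with quantile normalization (adjusted p = 0.0625 and 0.0581) and with the level trend removed (0.0926 and 0.0863).

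**Figure D5:**
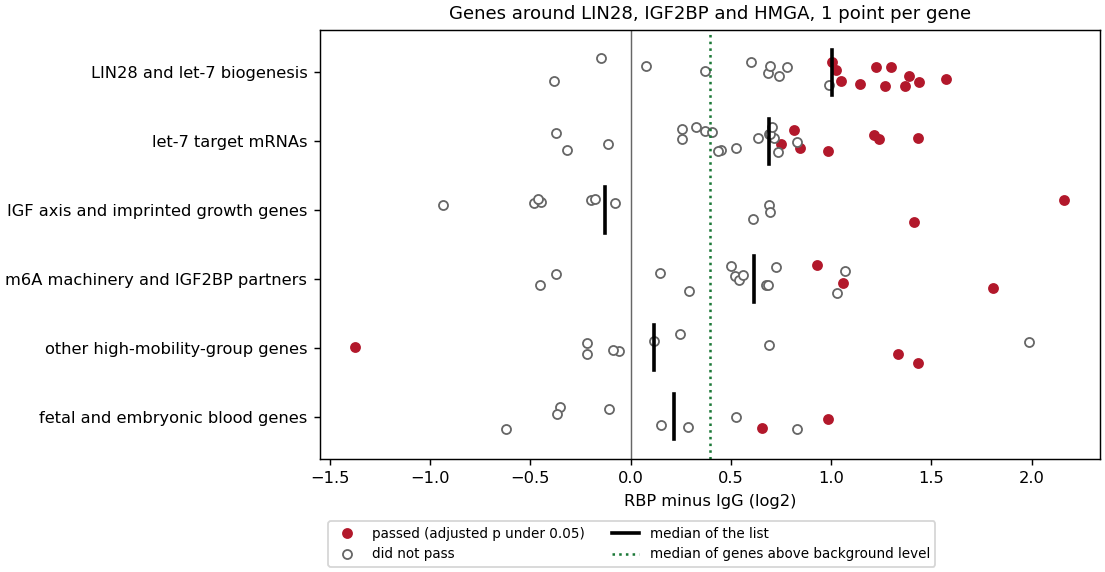
RBP minus IgG difference (log2) of each measured gene in the 6 lists, with filled points at an adjusted p under 0.05, black bars at list medians and a dotted line at 0.40, the median of all genes above the background level. Medians run from -0.13 for the IGF axis list to 1.0 for the let-7 biogenesis list.

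Of 10 fetal and embryonic blood genes, 2 were higher (20%, against 24.3% of genes above the background level), 0 were lower and 8 did not pass (limma; also 0 lower at an unadjusted p under 0.05), with a median of 0.22. They were Hic2 and Zbtb7a, a repressor of fetal globin (0.65 ± 0.14; limma, adjusted p = 0.0496). The call of Zbtb7a was lost with quantile normalization (0.12; adjusted p = 0.653) and without IgG array 2 (adjusted p = 0.0507), and its sign turned with the level trend removed (-0.07). Across the 6 lists 91 genes were measured, and 26 (28.6%) were higher and 1 (1.10%) lower, against 24.3% and 2.43% of genes above the background level and 15.8% and 2.02% of all 19938 genes. The share of higher calls over the lists was thus close to that of genes above the background level. The mRNA of Zfp36l2, the protein taken to be the target of the antibody, had 12.22 and 11.87 on the RBP arrays, against 11.26 and 11.31 on the IgG arrays. Its difference was 0.76 ± 0.19 (limma, adjusted p = 0.0604), or an adjusted p of 0.0267 over the probe sets with 1 gene symbol.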

How the data were processed

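RNA recovered by immunoprecipitation was measured on 4 arrays, 2 per group, with groups taken from the sample titles. Per the submitters' processing notes, RMA and affy were used, and the deposited values are on a log2 scale, read from their range (1.83 to 13.87). For tool versions and filters, the sources used here give nothing.

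The platform annotation gave 1 gene symbol for 21789 of 35556 probe sets, several for 1621 and none for 12146. Entrez identifiers of 21698 were found in the RefSeq table of GRCm38.p6, which changed 0 symbols. RBP minus IgG was fitted over all probe sets with limma 3.58.1 in R 4.3.3 (lmFit, eBayes), with two-sided p-values adjusted by Benjamini-Hochberg and called under 0.05. Prior degrees of freedom were 2.39 and residual ones 2. Genes of a list were read from their probe set of highest mean. The loess trend (span 0.3) was fitted on probe sets with 1 symbol. The script was tested on simulated data.

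The members and lists were chosen with earlier results of these data known. Named were all member probe sets, up to 4 called genes of a list by size (2 where none was called), Lin28a, Dis3l2, Dicer1, Igf2, H19, Arid3a and Zfp36l2, the 2 let-7 genes with the largest difference, and the 3 nearest genes to each member. H19 had no probe set with its symbol here. The number of arrays limits the precision, with a median SE of 0.191.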

Additional observations from a re-analysis of the deposited data

How the results depend on the processing

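The 14 alternatives were compared with the reported fit. Counts of probe sets called higher and lower over the whole table were 4122 and 1997. They were 832 and 781 with quantile normalization, 7074 and 981 after centring on the chemosensory probe sets, 625 and 1615 with the level trend removed, 4741 and 1304 with 1 probe set per gene, 1 and 0 without variance moderation, 6410 and 4921 at a threshold of 0.1, and 0 to 5355 and 0 to 5178 leaving out an array. The median difference over all probe sets was -0.16 as reported, 0.06 with quantile normalization and 0.15 after centring. Of the 5 member probe sets, 2 were higher as reported, 1 with quantile normalization or the level trend removed, 4 after centring, above the background level, over probe sets with 1 symbol or at a threshold of 0.1, 0 without moderation and 0 to 3 leaving out an array. None was called lower in these. Of the 91 list genes, 26 were higher and 1 lower. The higher ones numbered 4 with quantile normalization, 42 after centring, 3 with the level trend removed, 0 without moderation and 0 to 35 leaving out an array, and the lower ones 0 without moderation and 0 to 3 leaving out an array. Among the 45 named probe sets, signs turned for Lin28b (-0.11), Zbtb7a (-0.066), Dis3l2 (-0.037) and Lin28a (-0.038) with the level trend removed, and for Lin28a without IgG array 2 (-0.13) and without RBP array 1 (-0.29), while leaving out RBP array 2 gave 0.44. Over their 628 comparisons, 6 turned sign, and with the sign kept 128 lost a call and 80 gained one. Zbtb7a, counted among those that turned sign, also lost its call with the level trend removed. Where fewer probe sets or arrays were tested, the setting itself changes the variance estimate, and for the rest the cause was not tested.

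With the replicate number as a block, 5592 probe sets were higher and 4068 lower, 2 members were higher and 1, Hmga2, was lower (-0.78; limma, adjusted p = 0.0373), and 31 list genes were higher and 2 lower. Deviations of same-numbered arrays from their group means correlated at 0.373, with only 2 numbers, and nothing in the labels says that a number marks a shared preparation.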

Other observations

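Most cell type markers did not pass the threshold. Of 62 markers in 7 lists, the early erythroid list included, 3 were higher and 1 was lower (limma over all probe sets). In the 6 lists of other cell types 3 of 52 were called, Tek, Gp9 and Cd68. These 4 are named after their values were seen. Tek, the angiopoietin receptor of endothelial and blood stem cells, had 7.88 and 7.71 on the RBP arrays, against 5.97 and 5.79 on the IgG arrays, and differed by 1.92 ± 0.16 (SE; by limma, adjusted p = 0.0259). The platelet glycoprotein Gp9 differed by 0.82 ± 0.16 and the erythroid LIM protein Lmo2 by 0.73 ± 0.14. Cd68, a lysosomal protein of macrophages, differed by -1.59 ± 0.20 (adjusted p = 0.0259). Tek and Cd68 kept their calls with quantile normalization and with the level trend removed, and Gp9 and Lmo2 lost theirs in both.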
